A study of Mus musculus with 8 samples.

Results

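The calcium handling genes of early cardiomyocytes described here are 10 genes of the sarcoplasmic reticulum and the plasma membrane, *Ryr2*, *Trdn*, *Jph2*, *Casq1*, *Casq2*, *Hrc*, *Atp2a2*, *Pln*, *Sln* and *Slc8a1*. They were chosen by gene symbol from a table of 53465 genes, and all 10 were found there. Polyadenylated RNA was sequenced from mouse heart ventricles at embryonic day 9.5, in 4 samples labelled WT and 4 samples labelled Nrg-1flox;Tie2-Cre (mutant hereafter). In the mutant, *Nrg1* was deleted with Tie2-Cre, a driver active in endothelial cells, including the endocardium, and known to act in blood lineages too, so that the cardiomyocytes that use the calcium genes were not the cells targeted. The labels name no allele for the WT embryos and do not say whether a sample holds 1 embryo or several, so p-values measure the spread between these samples, which may be partly technical. Whole ventricles were sequenced, and fewer cardiomyocytes and less RNA per cardiomyocyte cannot be told apart.

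In a cardiomyocyte, calcium that enters through the plasma membrane opens ryanodine receptors, which release stored calcium from the sarcoplasmic reticulum to the myofilaments. Calsequestrin holds the stored calcium, triadin and junctophilin organise the release site, and the SERCA pump, restrained by small membrane peptides, returns calcium to the store. The sodium-calcium exchanger carries calcium across the plasma membrane and is among the earliest of these proteins in the embryonic heart, which already beats at this stage while its sarcoplasmic reticulum is still immature.

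The deletion, the tissue and the depth were checked first. *Nrg1* counts were 156, 131, 121 and 173 in WT replicates 1 to 4 and 61, 59, 71 and 72 in the mutant, a log2 fold change of -1.07 (SE 0.14, adjusted p = 0.00268, edgeR). Total counts ranged from 11852372 to 14360323 in WT and from 12430368 to 14223860 in the mutant. The summed level of 12 cardiomyocyte markers was 39000 to 40900 CPM (counts scaled to a common library size) in WT and 36110 to 40230 CPM in the mutant, and 0 of the 12 were called by edgeR at a false discovery rate of 0.05 (*Myh6* and *Ttn*, both negative, had an unadjusted p under 0.05, limma-voom called 0 and DESeq2 called 2 as lower). The 6 ventricular markers summed to 3719 to 4299 CPM in WT and 3144 to 4713 CPM in the mutant, with 2 called lower (*Hand1* and *Mpped2*), 0 higher, and a median log2 fold change of -0.25. The 8 markers of skeletal muscle, a tissue that also uses *Casq1* and *Trdn*, summed to 1.89 to 2.94 CPM in WT and 1.15 to 2.53 CPM in the mutant. The muscle determination genes *Myod1* and *Myf5* had 0 counts in all 8 libraries. All 12 erythroid markers were called higher in the mutant, and their summed level was 6723 to 8155 CPM in WT and 19920 to 69100 CPM in the mutant. Mutant replicate 1 stood highest on the erythroid sum, and also on the sum of 11 hypoxia and stress genes, 3 of which were called higher in the mutant, at 8103 CPM against 5056 to 5300 CPM in the other mutant samples and 4289 to 5014 CPM in WT. It was also the sample with the lowest cardiomyocyte sum. Of 7 markers of the trabeculae, the inner muscle layer, 4 were called lower (*Slit2*, *Irx3*, *Etv1* and *Bmp10*, log2 fold changes -1.72, -1.43, -0.62 and -0.57) and 1 higher (*Nppb*), while their sum, at 1197 to 1558 CPM in WT and 1385 to 1757 CPM in the mutant, overlapped. The 7 epicardial markers tested all had positive values and 1 was called (*Wt1*), and the 8 in the table summed to 154.5 to 214.2 CPM in WT and 244.9 to 435.4 CPM in the mutant. Of 10 endocardial and endothelial markers 1 was called lower (*Tek*), with sums of 898.2 to 986.0 CPM in WT and 791.0 to 866.6 CPM in the mutant. The part of these differences in the results on the calcium genes was not tested. Some values are also given without mutant replicate 1, or without the 12 erythroid markers, which leaves other erythroid RNA in.

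*Pln* encodes phospholamban and *Sln* encodes sarcolipin, the small membrane peptides that restrain the SERCA pump in heart and in atrium or skeletal muscle. Their coding sequences are shown because these short messages mark the contrast between a regulator measured at a high level and one near the limit of detection. Each lies within exon 2 of 2, the *Pln* sequence at chr10:53343864-53344022 and the *Sln* sequence at chr9:53853473-53853568, both on the plus strand of GRCm38. They hold 52 and 31 codons before the stop, and the capitals mark the start and stop codons.
Pln: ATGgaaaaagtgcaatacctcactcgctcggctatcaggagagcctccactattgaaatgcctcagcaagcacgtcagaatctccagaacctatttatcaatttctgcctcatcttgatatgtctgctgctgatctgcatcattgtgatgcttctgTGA
Sln: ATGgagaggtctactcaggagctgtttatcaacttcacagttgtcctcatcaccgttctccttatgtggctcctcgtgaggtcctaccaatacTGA

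The levels of the 10 genes in WT, per kilobase of annotated exons, placed the pump first. *Atp2a2*, which encodes the SERCA2 pump, stood at 393 ± 16.9 CPM per kilobase (SD, n = 4), followed by *Casq1* at 166 ± 7.14 and *Jph2* at 88.3 ± 3.25. *Pln* at 67.2 ± 14 and *Hrc* at 56.2 ± 4.96 CPM per kilobase were neighbours whose WT values overlapped, and they were the only neighbours in the order that did. *Slc8a1* followed at 30.5 ± 1.98, *Ryr2* at 18.0 ± 1.5, *Trdn* at 7.19 ± 0.581 and *Casq2* at 3.97 ± 1.32 CPM per kilobase. *Sln* closed the order at 0.113 CPM per kilobase. The mutant means fell in the same order, but *Trdn* at 5.05 and *Casq2* at 5.04 CPM per kilobase were nearly equal there. Their mutant ranges overlapped, as did those of *Pln* and *Hrc*. The order also held with the longest annotated transcript as the length, but the value of *Trdn* then rose to 14.9 and that of *Ryr2* to 30.8 CPM per kilobase, within the range of *Slc8a1* at 31.0. How far *Ryr2* lies below *Slc8a1* thus depends on the gene model.

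**Figure D1:**
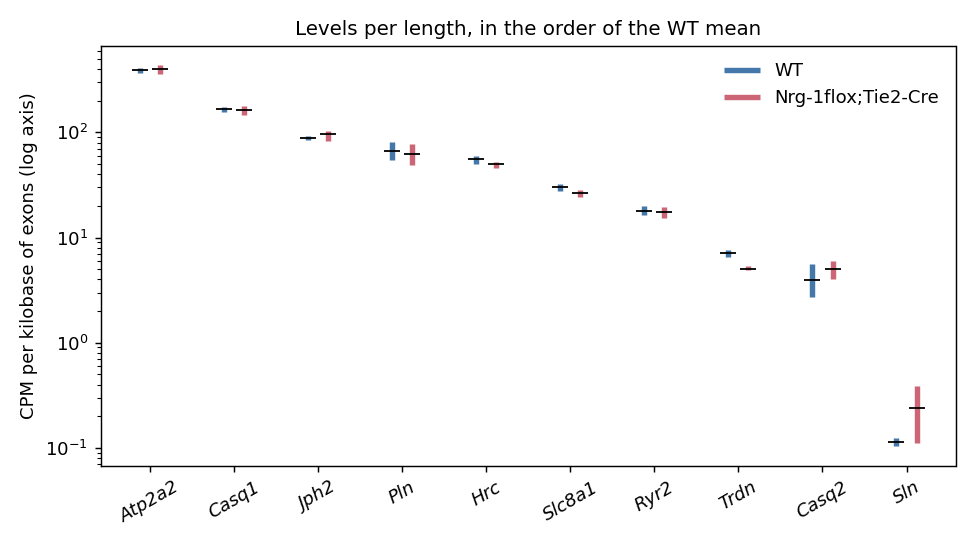
Level of each gene in CPM per kilobase of exons on a log axis, with the range of the 4 WT samples (blue) and the 4 mutant samples (red) and a black tick at each mean. *Atp2a2* at 393 and *Sln* at 0.113 CPM per kilobase in WT bound the order, and the ranges of the 2 genotypes lie apart for *Trdn* alone among the 9 genes above *Sln*.

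In each protein family 1 gene carried nearly all of the signal, measured as its share of the family's summed level per kilobase. *Ryr2* took 98.5 ± 0.15% of the ryanodine receptor level in WT (SD, n = 4), against 1.21% for *Ryr3* and 0.316% for *Ryr1*, the skeletal muscle form. *Atp2a2* took 98.4 ± 0.212% of the SERCA level, *Jph2* 97.4 ± 0.162% of the junctophilin level and *Slc8a1* 95.2 ± 1.15% of the exchanger level, with *Slc8a2* at 4.47%. Each of these is the form known from the adult heart. The calsequestrins were the other way round. *Casq1*, known as the skeletal muscle calsequestrin, took 97.6 ± 0.861% in WT and 97.0 ± 0.426% in the mutant, and *Casq2*, the cardiac calsequestrin, took 2.36% and 2.97%. *Casq1* was thus abundant in libraries in which the skeletal muscle markers were at or near 0.

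The promoters of both calsequestrin genes are shown because this is the family in which the form known from skeletal muscle prevailed. Each is the 250 bases before the gene start of RefSeq in GRCm38.p6, on the minus strand at chr1:172219896-172220145 for *Casq1* and on the plus strand at chr3:102086165-102086414 for *Casq2*. Capitals mark matches on either strand to the E-box CANNTG, to GATA, or to the MEF2 motif, and a match is a description of the letters only.
Casq1: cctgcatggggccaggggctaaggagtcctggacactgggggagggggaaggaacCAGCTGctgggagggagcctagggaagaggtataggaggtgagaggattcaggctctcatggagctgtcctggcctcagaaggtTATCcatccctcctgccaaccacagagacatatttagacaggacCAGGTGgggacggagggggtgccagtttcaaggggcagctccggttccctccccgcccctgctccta
Casq2: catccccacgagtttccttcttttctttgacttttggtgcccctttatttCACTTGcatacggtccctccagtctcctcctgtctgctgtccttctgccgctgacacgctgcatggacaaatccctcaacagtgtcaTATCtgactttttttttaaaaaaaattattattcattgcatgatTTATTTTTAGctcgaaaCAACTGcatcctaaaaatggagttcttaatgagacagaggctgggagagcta

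Each calsequestrin promoter held 2 E-boxes and 1 GATA match, and that of *Casq2* also held 1 MEF2 match. E-boxes occurred in 66.2% of 32851 promoters of this length, GATA in 53.6% and the MEF2 motif in 1.69%. Of the 10 genes, 7 matched an entry of the promoter table, *Casq1*, *Casq2*, *Hrc*, *Jph2*, *Pln*, *Ryr2* and *Slc8a1*, and *Casq2* alone of these had a MEF2 match. The E-box was found in 7 of the 7 and GATA in 6. The GC content was 61.6% for *Casq1* and 41.6% for *Casq2*.

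The comparison of the genotypes asks whether the calcium genes of the ventricle changed when endocardial *Nrg1* was lost. Of the 9 genes that passed the filter on low counts, *Trdn* was lower in the mutant and 8 were not called. With 1 of 9 called (11.1%), the set stood close to all 14451 genes tested, of which 8.62% were called, 3.5% as lower and 5.11% as higher. The median log2 fold change of the 9 genes was -0.03, with 6 negative and 3 positive values, and that of all genes tested was -0.0014. At an unadjusted p under 0.05, 3 of the 9 were lower and 0 higher, where 11.9% of all genes tested were lower and 13.1% higher, and neither DESeq2 nor limma-voom called any as higher. *Sln* was left out by the filter.

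**Figure D2:**
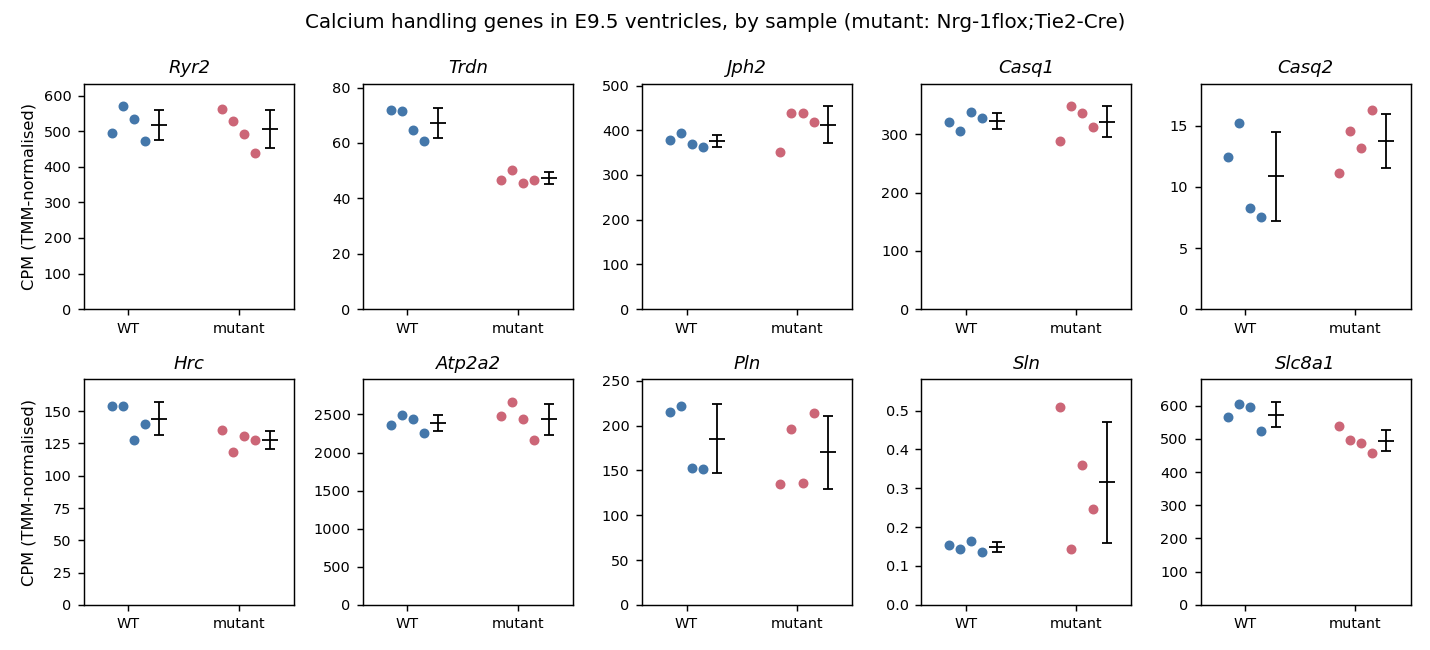
TMM-normalised CPM of each gene in the 4 WT samples (blue, replicates 1 to 4 from left to right) and the 4 mutant samples (red, likewise), with the mean and SD in black and every axis starting at 0. The mutant samples of *Trdn* lie between 45.5 and 50.3 CPM, under all WT samples, while the genotypes overlap in the other 9 panels.

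Among the release genes, *Ryr2*, the channel itself, was measured at 493.6, 569.5, 533.9 and 472.3 CPM in WT replicates 1 to 4 and at 563.7, 527.8, 492.8 and 437.6 CPM in the mutant. The ranges overlapped over most of their width. The log2 fold change was -0.03 (SE 0.09, 95% confidence interval -0.23 to 0.16, adjusted p = 0.851, edgeR), and its sign changed when the libraries were scaled on cardiomyocyte markers.

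*Trdn* encodes triadin, which ties the ryanodine receptor to calsequestrin in the junctional membrane. Its level was 71.9, 71.6, 64.5 and 60.8 CPM in WT replicates 1 to 4 and 46.5, 50.3, 45.5 and 46.7 CPM in the mutant. Every mutant sample was below every WT sample, and the mutant samples lay close together. *Trdn* fell by 29.7% (log2 fold change -0.51, SE 0.07, 95% confidence interval -0.66 to -0.35, adjusted p = 0.00312, edgeR). The gene spans chr10:33080554-33476709 of GRCm38 on the plus strand, with 8 annotated transcripts and 38 exons in the longest, and no other annotated exon overlaps its exons. The counts are summed over its transcripts, so a shift between isoforms of different length was not measured. The call was made in all 7 alternative fits and in all 8 fits without 1 sample. Without mutant replicate 1, the sample with the most erythroid RNA, the log2 fold change was -0.50 (adjusted p = 0.0015), and with the libraries scaled on cardiomyocyte markers it was -0.47 (adjusted p = 0.00516). With the 12 erythroid markers and the mitochondrial genes removed before normalisation it was -0.51 (adjusted p = 0.00327, edgeR). Other erythroid genes stayed in that fit, so the part of erythroid RNA was not tested by it.

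*Trdn* was set against the genes it works with inside each sample, in percentages chosen after its values were known and given with no test. They reuse the same *Trdn* counts, over partners that were not called, and so are a description and no separate support. *Trdn* counts were 12.1% to 14.6% of *Ryr2* counts in WT and 8.26% to 10.7% in the mutant. Against *Casq1* they were 18.5% to 23.4% in WT and 13.5% to 16.1% in the mutant, and against *Jph2* 16.8% to 19.0% and 10.3% to 13.2%. The genotypes lay apart for all of these partners. Against *Tnnt2*, cardiac troponin T of the myofilament, *Trdn* stood at 2.53% to 3.11% in WT and 1.93% to 2.54% in the mutant. These ranges met at mutant replicate 1, which had 1829 CPM of *Tnnt2* against 2342 to 2397 CPM in the other mutant samples.

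**Figure D3:**
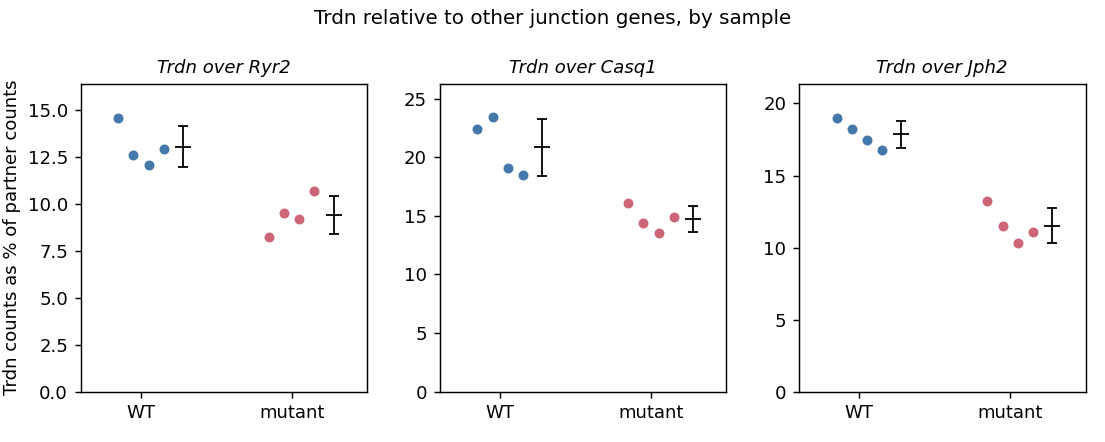
*Trdn* counts as a percentage of the counts of *Ryr2*, *Casq1* and *Jph2* in each WT (blue) and mutant (red) sample, with the mean and SD in black and axes from 0. The highest mutant sample, 10.7% of *Ryr2*, 16.1% of *Casq1* and 13.2% of *Jph2*, lies under the lowest WT sample in each panel.

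*Jph2* encodes junctophilin 2, which holds the sarcoplasmic reticulum close to the plasma membrane. It measured 378.9, 393.2, 368.5 and 361.4 CPM in WT and 352.0, 438.1, 439.5 and 418.9 CPM in the mutant. Mutant replicates 2, 3 and 4 were above all WT samples and mutant replicate 1 was below all of them. Its log2 fold change was 0.13 (SE 0.07, adjusted p = 0.293, edgeR). Without mutant replicate 1 it was 0.20 and *Jph2* was called higher (adjusted p = 0.0101), the 1 setting of 15 in which it was called.

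*Casq1* measured 320.9, 305.5, 338.6 and 328.2 CPM in WT and 288.3, 348.8, 336.6 and 312.6 CPM in the mutant, with overlapping ranges. *Gm17224*, on the opposite strand over 8.0% of the exon bases of *Casq1*, was given at most 0.719 CPM. The log2 fold change was -0.01 (SE 0.07, 95% confidence interval -0.16 to 0.14, adjusted p = 0.961, edgeR), and its sign changed with scaling on cardiomyocyte markers. *Casq2* measured 12.4, 15.2, 8.3 and 7.5 CPM in WT and 11.1, 14.6, 13.2 and 16.3 CPM in the mutant. Its WT samples fell into a higher and a lower pair, and all mutant samples lay above the lower pair. The log2 fold change of 0.34 had a wide interval (SE 0.22, 95% confidence interval -0.15 to 0.84, adjusted p = 0.373, edgeR), with 101 to 212 counts per sample behind it, and ran from 0.20 without WT replicate 4 to 0.55 without WT replicate 2. *Hrc*, the histidine-rich calcium binding protein of the store, measured 154.1, 154.3, 127.8 and 140.1 CPM in WT and 135.1, 118.0, 130.4 and 127.3 CPM in the mutant. WT replicate 3 lay among the mutant samples, and the log2 fold change was -0.17 (SE 0.07, adjusted p = 0.181, edgeR).

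The reuptake genes gave no call. *Atp2a2* measured 2364, 2495, 2438 and 2257 CPM in WT and 2474, 2666, 2436 and 2164 CPM in the mutant. The mutant samples spanned the whole WT range, and the log2 fold change was 0.03 (SE 0.07, 95% confidence interval -0.12 to 0.18, adjusted p = 0.840, edgeR). *Pln* measured 215.2, 222.4, 153.0 and 151.4 CPM in WT and 134.4, 196.1, 136.2 and 213.8 CPM in the mutant. Both genotypes held a higher and a lower pair of samples, so that the spread within a genotype exceeded the difference between the means, a log2 fold change of -0.13 (SE 0.18, 95% confidence interval -0.54 to 0.29, adjusted p = 0.722, edgeR). Leaving out 1 sample moved it between -0.25 (mutant replicate 4) and -0.03 (WT replicate 2). Exons of *Gm47644*, on the opposite strand, cover 59.6% of the exon bases of *Pln*. *Cep85l*, also on the opposite strand, covers 5.11%. Reads of these genes cannot be told apart from those of *Pln* without strand. *Gm47644* was given 0.74 to 2.21 CPM and *Cep85l* 9.57 to 15.9 CPM, values that come from the same assignment of reads. Their part in the *Pln* counts was not tested.

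*Sln* had 2, 2, 2 and 2 counts in WT and 6, 2, 5 and 3 counts in the mutant. All WT samples were under 3 counts, the number taken as the limit of detection, and 2 mutant samples were above it. No fold change of *Sln* itself is given at this depth. *Sln* is known as an atrial gene of the mouse heart, and the summed level of 8 atrial and inflow markers was 362.4 to 364.5 CPM in WT and 343.1 to 481.6 CPM in the mutant, with 2 of the 8 called higher (*Dkk3* and *Tbx18*) and 1 lower (*Angpt1*). Mutant replicate 2 was highest on that sum and at 2 counts of *Sln*.

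*Slc8a1*, which encodes the sodium-calcium exchanger NCX1, came second to *Trdn* in its p-value. It measured 566.7, 606.4, 595.3 and 523.0 CPM in WT and 537.8, 497.0, 487.2 and 458.9 CPM in the mutant. The genotypes overlapped only through mutant replicate 1, which stood above WT replicate 4. The log2 fold change of -0.21 (SE 0.07, 95% confidence interval -0.36 to -0.06) did not pass the threshold over all genes (adjusted p = 0.0806, edgeR). It passed with DESeq2 at -0.20 (adjusted p = 0.0391) and without mutant replicate 1 at -0.25 (adjusted p = 0.0131), and in none of the other 13 settings, which gave adjusted p from 0.0518 to 0.259.

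**Figure D4:**
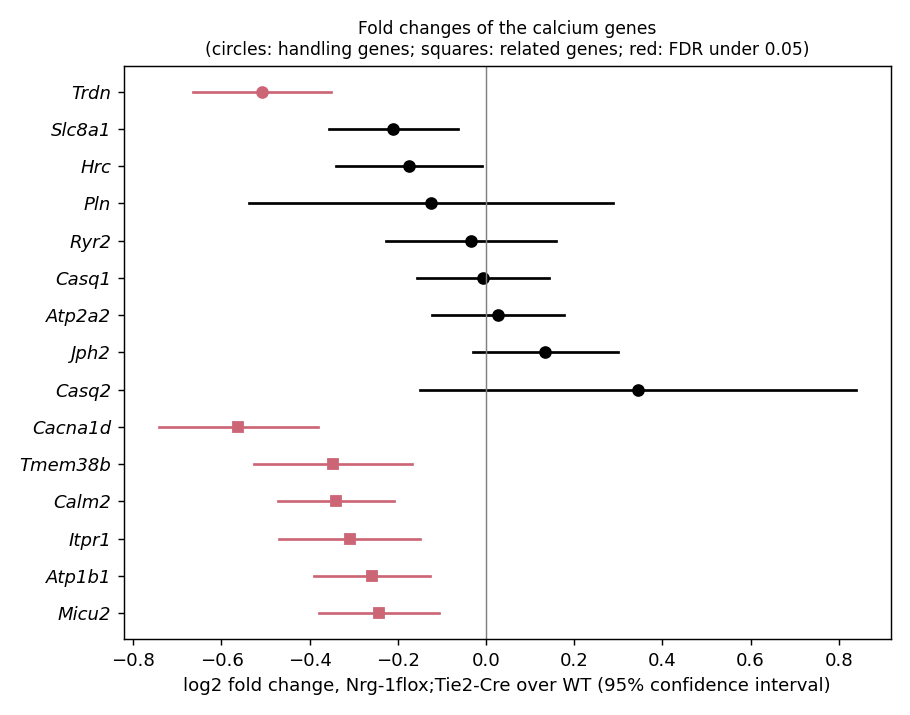
Log2 fold change of the mutant over WT with its 95% confidence interval from edgeR for the 9 calcium handling genes tested (circles) and 6 related calcium genes called (squares), in red where the adjusted p was under 0.05. *Trdn* at -0.51 is the circle in red, and the intervals of *Slc8a1* and *Hrc* also lie below 0 without passing the adjusted threshold.

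Ratios between genes within a sample do not depend on how libraries are scaled, and 6 of them were compared between genotypes by exact permutation, two-sided, for which the smallest p with 4 samples against 4 is 0.0286. The mean log2 ratio of *Slc8a1* to *Atp2a2*, exchanger to pump, was -2.06 ± 0.03 in WT and -2.30 ± 0.10 in the mutant (SD, n = 4), with single values of -2.06, -2.04, -2.03 and -2.11 in WT and -2.20, -2.42, -2.32 and -2.24 in the mutant. The ratio was lower in 4 of 4 mutant samples than in any WT sample (difference -0.23, exact permutation p = 0.0286), and its adjusted p over the 6 ratios was 0.171, the lowest that 1 ratio alone can reach with these group sizes. Unlike the level of *Slc8a1*, this ratio did not overlap between genotypes with mutant replicate 1 included.

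The ratio of *Pln* to *Atp2a2*, regulator to pump, averaged -3.71 ± 0.28 in WT and -3.87 ± 0.40 in the mutant (difference -0.16, exact permutation p = 0.514), and the difference ran from -0.33 without mutant replicate 4 to -0.05 without mutant replicate 1. That of *Ryr2* to *Atp2a2*, release to reuptake, averaged -2.21 ± 0.06 and -2.27 ± 0.09 (difference -0.06, exact permutation p = 0.314), with -0.11 without mutant replicate 1 and -0.03 without WT replicate 2. Both overlapped between genotypes. *Casq2* to *Ryr2* averaged -5.63 in WT and -5.20 in the mutant (exact permutation p = 0.143), and *Casq1* to *Casq2* averaged 4.95 and 4.55 (exact permutation p = 0.229). The log2 ratio of *Sln* to *Atp2a2* differed by 0.79 with a pseudocount of 0.5 and by 0.38 with a pseudocount of 5 (exact permutation p = 0.143 in both), so on 2 to 6 counts of *Sln* its size rests on the pseudocount and is no measured fold. None of these 5 ratios had an adjusted p under 0.286.

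**Figure D5:**
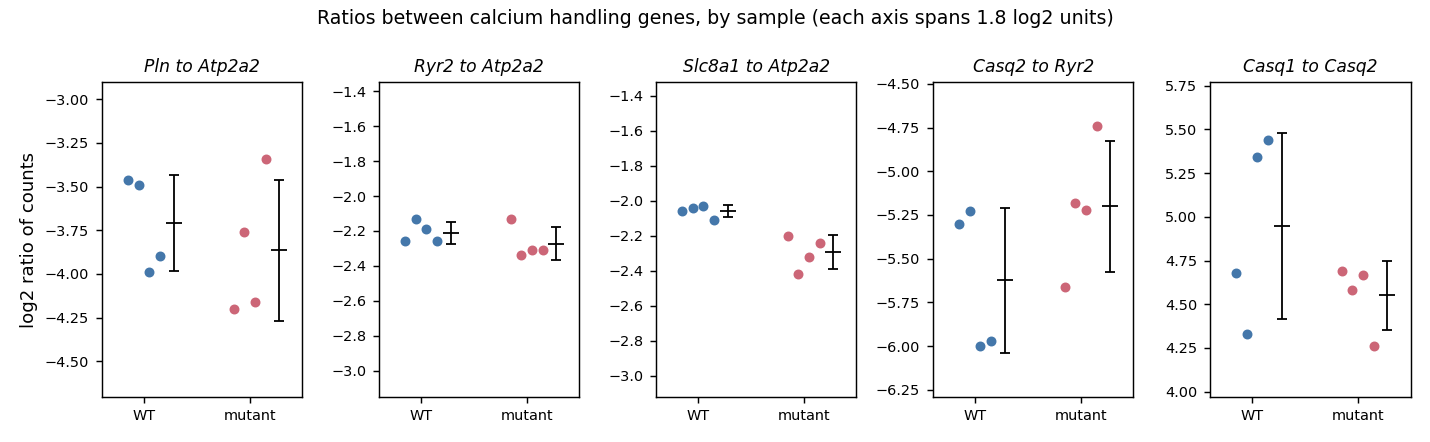
Log2 ratios of counts for 5 gene pairs in each WT (blue) and mutant (red) sample, with the mean and SD in black and axes of equal span. The exchanger-to-pump ratio, *Slc8a1* to *Atp2a2*, lies between -2.42 and -2.20 in the mutant and between -2.11 and -2.03 in WT, and the other pairs overlap.

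The samples of a genotype also varied together in some of these genes, which was described by correlating deviations from the genotype mean over the 8 samples, with no test, since the points share their library and its scaling. *Ryr2* and *Slc8a1* deviated together (r = 0.945), as did *Ryr2* and *Atp2a2* (r = 0.837) and *Pln* and *Casq2* (r = 0.875). *Trdn* deviated with *Casq2* (r = 0.812) and with *Pln* (r = 0.755). In *Pln*, *Casq2*, *Trdn*, *Jph2* and *Hrc*, WT replicates 1 and 2 were both above WT replicates 3 and 4. *Casq1* and *Hrc* deviated in opposite directions (r = -0.719). Among 10332 genes with a mean of at least 100 counts, those most like *Ryr2* were *Dgkk* (r = 0.977), *Asxl1* (r = 0.975) and *Peak1* (r = 0.964). The genes most like *Atp2a2* were *Cxadr* (r = 0.976), *Tenm3* (r = 0.975) and *Itgb8* (r = 0.959), and those most like *Slc8a1* were *Dst* (r = 0.991), *Dis3l2* and *Ptgfrn* (both r = 0.98). Without mutant replicate 1 these 9 coefficients stayed between 0.96 and 0.989.

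Around these genes, 70 related genes of calcium release, storage, entry, extrusion and mitochondrial uptake were listed, of which 63 were tested. Of the 63, 7 were lower in the mutant (11.1%) and 0 higher, beside 3.5% and 5.11% of all genes tested, and their median log2 fold change was -0.01. At an unadjusted p under 0.05, 12 were lower and 5 higher, beside the 11.9% and 13.1% of all genes, and DESeq2 called 9 as lower and 1 as higher, limma-voom 7 and 0. Without mutant replicate 1, 15 were lower and 5 higher, in a fit that called 7.89% of all genes as lower and 9.35% as higher. Of the accessory genes of the release site 2 of 15 were lower, of the IP3 receptors and lumenal calcium binding proteins 1 of 9, of the genes of surface entry and extrusion 3 of 15, and of the mitochondrial genes 1 of 10. None of 7 other genes of reuptake and none of 7 genes of store-operated entry were called by edgeR, DESeq2 or limma-voom, with 1 in each list at an unadjusted p under 0.05. Without mutant replicate 1, edgeR called *Ppp1r1a*, of the reuptake list, as higher.

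At the release site, *Calm2*, 1 of the genes for calmodulin, measured 380.8, 354.4, 384.3 and 391.3 CPM in WT and 273.1, 317.5, 299.2 and 303.7 CPM in the mutant. No mutant sample reached the lowest WT sample, and the log2 fold change was -0.34 (SE 0.06, adjusted p = 0.00824, edgeR). *Calm3*, which encodes the same protein, was not called (log2 fold change 0.05, adjusted p = 0.827), but was called higher without mutant replicate 1 (0.17, adjusted p = 0.0376). *Tmem38b*, a counter-ion channel of the reticulum, fell with a log2 fold change of -0.35 (SE 0.08, adjusted p = 0.0284), from 29.9 to 37.8 CPM in WT and 24.7 to 26.8 CPM in the mutant. *Asph*, whose locus also encodes junctin, a partner of triadin at the release site, had -0.14 (adjusted p = 0.267), and was called lower without mutant replicate 1 (-0.20, adjusted p = 0.0297).

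At the surface, *Cacna1d*, the pore of the L-type calcium channel Cav1.3, measured 39.8, 38.8, 41.0 and 40.6 CPM in WT and 26.9, 29.1, 29.4 and 23.0 CPM in the mutant. The WT samples lay close together and all mutant samples were below them, with a log2 fold change of -0.56 (SE 0.08, adjusted p = 0.00359, edgeR). *Cacna1c*, the pore of the main cardiac L-type channel Cav1.2, was at 117.2 CPM in the mutant and 134.2 CPM in WT on average, with no overlap between samples, and was not called (log2 fold change -0.20, adjusted p = 0.075). It was called with DESeq2 and without mutant replicate 1. Of the 15 genes tested in this list, 9 had negative and 6 had positive values. *Slc8a2*, another exchanger gene, had -0.33 and was not called (adjusted p = 0.405, edgeR). The uncalled genes with the largest positive values follow. *Fxyd1*, phospholemman, a regulator of the sodium pump, stood at 0.45 on the log2 scale (adjusted p = 0.0599) and was called higher in 6 of 15 settings, *Cacna1g*, a T-type channel pore, had 0.59 (adjusted p = 0.106) and was called higher without mutant replicate 1, and *Cacnb1*, a channel beta subunit, had 0.47 (adjusted p = 0.0879) with no overlap between samples. *Atp1b1*, the beta1 subunit of the sodium pump, whose sodium gradient drives the exchanger, fell by 0.26 on the log2 scale (adjusted p = 0.0262), from 492.6 to 559.3 CPM in WT and 400.4 to 450.7 CPM in the mutant. *Atp1b1* shares exon bases with *Nme7* on the opposite strand over 18.7% of its length, and *Cacna1d* with *Chdh* over 4.67%.

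*Itpr1*, an IP3-gated release channel, fell by 0.31 on the log2 scale (adjusted p = 0.0283, edgeR), from 96.2 to 107.2 CPM in WT and 73.4 to 90.7 CPM in the mutant. *Micu2*, a gatekeeper of the mitochondrial uniporter, had -0.24 (adjusted p = 0.0382), from 79.3 to 90.0 CPM in WT and 69.6 to 75.4 CPM in the mutant. *Calm2* and *Cacna1d* were called in all 7 alternative fits and in all 8 fits without 1 sample. *Tmem38b*, *Itpr1*, *Atp1b1* and *Micu2* were each called in 2 of those 8 fits, and in 5, 5, 6 and 4 of the 7 alternatives, while their log2 fold changes without 1 sample stayed between -0.39 and -0.28, -0.35 and -0.26, -0.28 and -0.22, and -0.28 and -0.22, in that order.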

How the data were processed

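Ventricle RNA was extracted with a PicoPure kit, made into polyA libraries (NEBNext Ultra) and read as 60-base single reads. The authors deposited expected counts per gene; per the submitters' processing notes, cutadapt, RSEM 1.3.1 and the build GRCm38 were used, and the aligner and the use of strand are not given in the sources used here. Expected counts were rounded to whole numbers. Of 53465 genes, 53274 had a symbol. No sample column was left unused.

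Genotypes were compared with edgeR 4.0.16 (R 4.3.3; filterByExpr, 14451 genes kept, TMM, quasi-likelihood test, Benjamini-Hochberg adjustment over all genes tested, false discovery rate 0.05). SEs are the log2 fold change over the square root of F. CPM are TMM-normalised. Lengths are the union of GENCODE M21 exons. Log2 ratios of counts used a pseudocount of 0.5 and an exact permutation test over 70 relabellings. Between replicates the chi-square per degree of freedom was at least 3.65, above sampling noise, and each sample counted once. It was 3.65 to 5.92 between WT samples and 4.48 to 49.8 between mutant samples. The pairs with mutant replicate 1 were highest, at 28.8 to 49.8. On simulated data with 200 genes changed by a log2 fold change of 1 in size, the fit recovered 77% and made 7 false calls. Smaller changes, such as those of the calcium genes, were not simulated. Alternative fits used limma-voom (limma 3.58.1), DESeq2 1.42.0, upper-quartile normalization, no filter, and the replicate number as a block. Others used libraries without the 12 erythroid markers and the mitochondrial genes, scaling on cardiomyocyte markers, a pseudocount of 5, and each sample left out. Members and lists were chosen with earlier results of these data known. Named are *Nrg1*, all members, up to 4 called genes per direction of each related list, and the 3 genes most like *Ryr2*, *Atp2a2* and *Slc8a1*. Some related genes are counted in their lists but not reported here.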

Additional observations from a re-analysis of the deposited data

Results flagged for a closer look

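In the mutant, the ratio of *Ryr2* to *Atp2a2* in replicate 1 lay far from the others, at a log2 ratio of -2.13 against -2.34, -2.31 and -2.31. Its gap to the nearest sample was 0.846 of the whole range of the group, above the critical value of 0.829 for 4 samples. Chance marks about 1 in 20 groups in this way, or 2.4 of the 48 groups examined, and 1 was marked.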

How the results depend on the processing

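*Trdn* was called in every fit, with log2 fold changes from -0.52 to -0.47 over the 7 alternatives and from -0.55 to -0.47 over the 8 fits without 1 sample (adjusted p at most 0.0173). The members called numbered 2 with DESeq2 (*Slc8a1* added) and from 1 to 3 without 1 sample, 3 being without mutant replicate 1. The related genes called numbered 7, and from 3 to 20 without 1 sample: 20 without mutant replicate 1 (15 lower and 5 higher), 3 without mutant replicate 3 or 4 or WT replicate 1 or 4, and 4 without WT replicate 2. All genes called numbered 1245, and from 509 to 2523 without 1 sample, with 2523 without mutant replicate 1, 784 and 652 without mutant replicates 3 and 4, and 509, 700, 592 and 569 without WT replicates 1 to 4; the cause was not tested.

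Same-numbered samples did not deviate together over all genes tested (mean r -0.00425, range -0.0852 to 0.0286), so no pairing by number was seen. A pairing that touches only some genes would not show in these coefficients. With the replicate block, 616 genes, 4 related genes (among them *Calm2* and *Cacna1d* lower and *Fxyd1* higher) and 1 member were called, and the ratio of *Slc8a1* to *Atp2a2* (-0.23) had an exact paired p of 0.125, the smallest that 4 pairs allow.

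With scaling on cardiomyocyte markers the small values of *Ryr2* and *Casq1* turned to 0.0116 and 0.0278. Without 1 sample *Ryr2* ranged from -0.0893 to 0.0297, *Atp2a2* from -0.01005 to 0.0805 and *Casq1* from -0.0398 to 0.0421, and none of them was called. The differences of *Casq2* to *Ryr2* ran from 0.27 (without mutant replicate 4) to 0.58 and those of *Casq1* to *Casq2* from -0.61 (without WT replicate 2) to -0.23 (without WT replicate 4). The *Sln* to *Atp2a2* ratio ranged from 0.548 to 1.12 without 1 sample, with an exact p of 0.0286 at 1.12, without mutant replicate 2. Depth limits *Sln*, at 2 to 6 counts.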
